A study of Mus musculus with 22 samples.

Results

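The 8 genes described here, Vcan, Plac8, Chil3, F10, F13a1, Thbs1, Hp and Fn1, are genes known to be high in inflammatory Ly6C-high monocytes, and they were chosen by name from 19938 genes measured. The cells came from the tibialis anterior muscle of C57B6/J mice injured with cardiotoxin, a toxin from snake venom that destroys fibres, after which the muscle regenerates. At days 1, 2, 4 and 8 after injury, leukocytes carrying CD45 were drawn from the muscle on magnetic beads and stained for Gr1 and Cx3cr1. They were sorted into Gr1+/Cx3cr1low cells, which the protocol names Ly6C+ F4/80low, and Gr1-/Cx3cr1high cells, named Ly6C- F4/80high. They are called Gr1-positive and Gr1-negative below. RNA was measured on 22 Affymetrix arrays, 3 biological replicates for each of 7 groups and 1 array for the Gr1-positive cells of day 8. Every group came from injured muscle, and no group of uninjured muscle or blood monocytes was analysed here. The age of the mice and the number of mice behind each array are not given in the sources used here, so the p-values measure the spread between these samples.

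Ly6C-high monocytes leave the bone marrow, enter injured tissue through the chemokine receptor Ccr2 and turn into macrophages there. In injured muscle they arrive in the first days, clear dead fibres, and give way to Ly6C-low macrophages that accompany regeneration. The 8 genes encode products of different roles. Vcan (versican, a chondroitin sulphate proteoglycan), Fn1 (fibronectin) and Thbs1 (thrombospondin, which also activates latent TGF-beta) enter the extracellular matrix. F10 is the precursor of the protease that cleaves prothrombin, and F13a1 is the catalytic subunit of the transglutaminase that crosslinks fibrin. Hp (haptoglobin) binds free haemoglobin, Chil3 (Ym1) is a chitinase-like secreted lectin, and Plac8 is a small cysteine-rich protein of the cell interior.

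The names of the groups were checked first against genes of the sort. Ly6c1 and Ly6c2, the genes of the Ly6C antigen, were not analysed here. Ly6g, the other antigen that Gr1 antibodies bind, was lower in Gr1-negative cells as a mean over days 1, 2 and 4. The difference was 0.58 ± 0.10 on the log2 scale (limma adjusted p = 0.0017). At days 1, 2 and 4 alone it did not pass (limma adjusted p = 0.0795, 0.104 and 0.317). Ly6g was dim, with group means of 5.43 to 6.46, where the 25% quantile of all signals was 6.25. Cx3cr1 was 0.46, 0.27, 0.27 and 0.42 higher in Gr1-negative cells at days 1, 2, 4 and 8, and none of these differences passed the test (limma adjusted p from 0.564 to 0.676). Adgre1, the gene of F4/80, was 0.10, 0.21 and 0.13 higher in Gr1-negative cells at days 1, 2 and 4. None of these differences passed (limma adjusted p = 0.915, 0.225 and 0.547). At day 8 it was 0.49 higher, a difference that rests on the single Gr1-positive array. Ccr2 was lower in Gr1-negative cells by 0.66 ± 0.13 at day 2 (limma adjusted p = 0.0114). Its differences of -0.26 at day 1 and -0.13 at day 4 did not pass (limma adjusted p = 0.656 and 0.683). The mean over days 1, 2 and 4 was -0.35 ± 0.08 (limma adjusted p = 0.00774). Array medians lay between 7.02 and 7.18.

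Promoters are shown for the members with an entry in the RefSeq table of build GRCm38.p6, because 3 of them (Vcan, F10 and F13a1) fell together from day 2 to 4 in both subsets and the other 2 (Plac8 and Chil3) did not pass in that step. Entries were matched for 5 of the 8 genes (Vcan, Plac8, Chil3, F10 and F13a1), in 7 windows since Plac8 and F13a1 have 2 each. Thbs1, Hp and Fn1 had none. The 150 bases before the start are printed for 1 window of each gene, 5′ to 3′ on the strand of the gene, with letters in capitals where a searched motif or its reverse complement occurs. The windows are those of Vcan (chr13:89742513-89742662, minus strand), F13a1 (chr13:37050245-37050394, minus strand), Chil3 (chr3:106167565-106167714, minus strand), F10 (chr8:13037158-13037307, plus strand) and the second window of Plac8 (chr5:100563097-100563246, minus strand). The printed windows of Vcan and Plac8 lie inside their genes, which reach to 89743027 and 100572253, so they precede internal starts. The first Plac8 window (100572206-100572355) lies at the outer end of that gene.
Vcan: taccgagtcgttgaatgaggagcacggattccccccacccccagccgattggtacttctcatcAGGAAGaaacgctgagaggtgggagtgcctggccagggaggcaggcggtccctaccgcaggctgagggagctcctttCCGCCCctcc
F13a1: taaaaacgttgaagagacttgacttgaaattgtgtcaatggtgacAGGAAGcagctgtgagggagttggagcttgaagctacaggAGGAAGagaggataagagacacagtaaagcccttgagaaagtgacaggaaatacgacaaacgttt
Chil3: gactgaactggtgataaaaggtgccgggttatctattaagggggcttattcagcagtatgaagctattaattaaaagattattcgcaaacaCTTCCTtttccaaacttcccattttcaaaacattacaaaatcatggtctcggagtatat
F10: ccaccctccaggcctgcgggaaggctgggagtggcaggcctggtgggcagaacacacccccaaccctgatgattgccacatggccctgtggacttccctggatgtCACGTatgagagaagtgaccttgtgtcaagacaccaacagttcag
Plac8: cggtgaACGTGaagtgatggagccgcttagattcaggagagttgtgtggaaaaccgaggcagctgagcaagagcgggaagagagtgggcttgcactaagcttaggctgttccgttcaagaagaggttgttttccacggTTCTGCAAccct

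The motifs were searched on both strands of the 250 bases before the start, where matches of different motifs may overlap. The letters AGGAAG, which hold the core bound by ETS factors such as PU.1, occurred in the windows of Vcan, Chil3 and F13a1, 3 of 5 genes or 4 of their 7 windows, and in 29.5% of all 32851 windows of that length. F10 and Plac8 did not hold AGGAAG, and held ACGTG in 2 of the 7 windows, against 16.6% of all windows. TTNNGCAA, a C/EBP-type motif found in 9.56% of windows, occurred in Plac8 alone among the 5, in 1 of the 7 windows. Both Plac8 matches lie in its second window, and its first window, not printed, held none of the 6 motifs. GGGCGG, found in 32.7%, occurred in Vcan alone. TGANTCA (6.75% of windows) and TATAAA (12.4%) occurred in none of the 5. None of the 6 motifs occurred in all 5 genes.

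**Figure D1:**
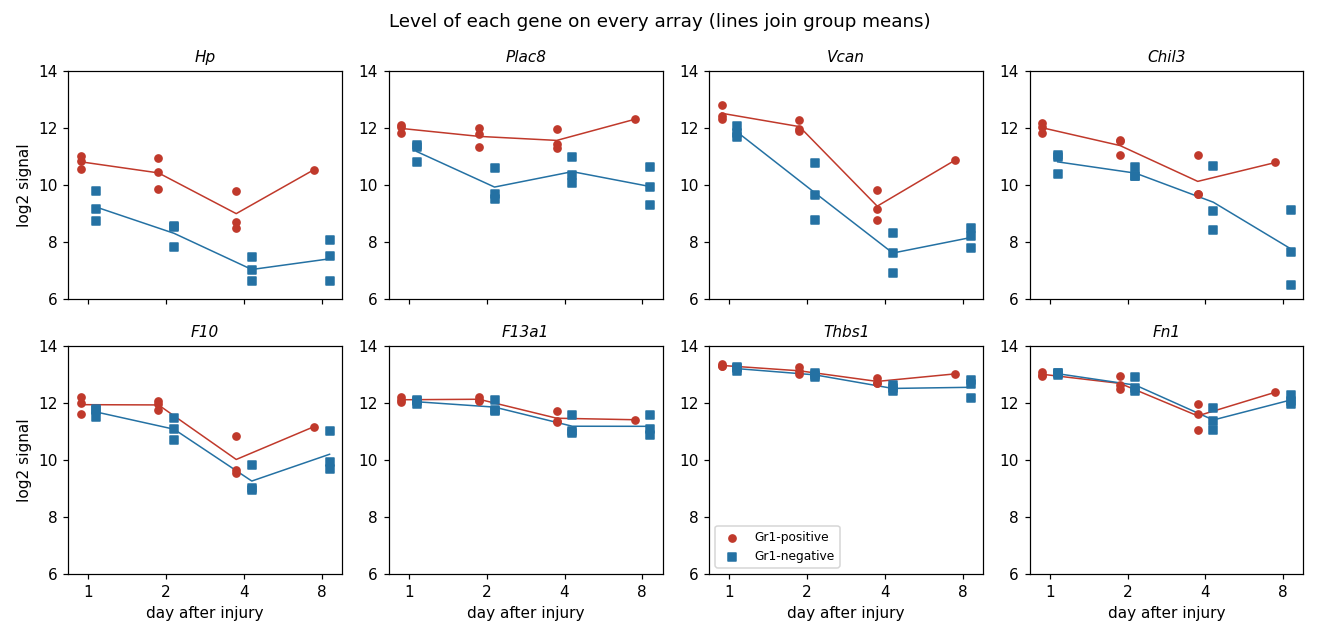
Log2 signal of each of the 8 genes (vertical axis) on every array by day after injury (horizontal axis, days not to scale), with circles for Gr1-positive and squares for Gr1-negative cells and lines joining group means. Vcan falls from 12.51 and 11.85 at day 1 to 9.25 and 7.60 at day 4. The single Gr1-positive array of day 8 lies above all Gr1-negative arrays of that day for 7 of 8 genes, as for 31.8% of all genes.

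The genes differed in how much of their variation lay with the sort and how much with the day. Hp and Plac8 varied most with the sort, and F10, F13a1, Thbs1 and Fn1 mostly with the day, as did Vcan, with a further part for the sort. Each gene's sum of squares over 18 arrays (days 1, 2 and 4) was split into parts for day, for subset, for their interaction and for the spread between replicates. Subset took 60.3% for Plac8 and 50.5% for Hp, against a median of 7.1% over all genes. Day took 88.5% for Fn1, 84.0% for Thbs1, 80.1% for F10, 74.8% for F13a1 and 72.3% for Vcan, against a median of 27.7%. Chil3 stood between, with 49.2% for day, 24.1% for subset and the widest spread between replicates of the 8, 25.7%. The interaction was at most 6.58%, in Plac8. These shares are a description without a test.

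**Figure D2:**
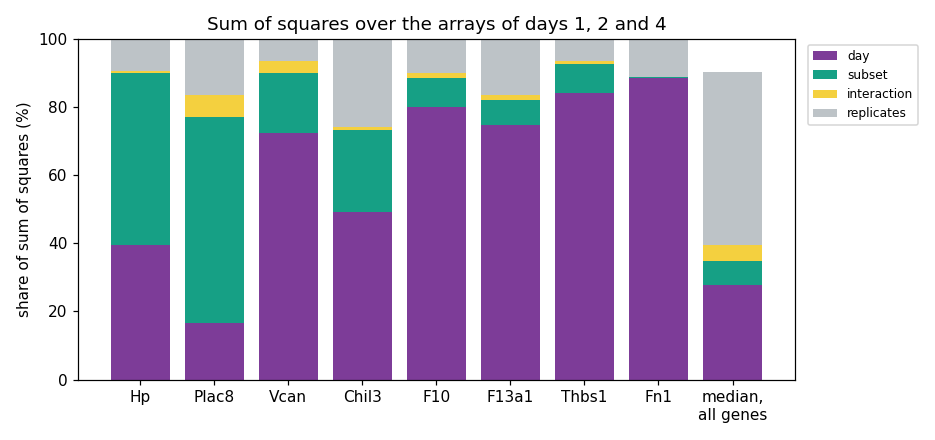
Share of the sum of squares over 18 arrays (vertical axis, percent; days 1, 2 and 4) for each of the 8 genes and the median of all genes, split into day, subset, their interaction and replicates. Subset is widest in Plac8 (60.3%) and Hp (50.5%) and day in Fn1 (88.5%), and the last bar does not reach 100 because each of its parts is a median of its own.

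Hp had lower means in Gr1-negative cells on every day. At day 1 its log2 signal was 10.84, 11.02 and 10.56 in the Gr1-positive replicates 1 to 3, and 8.73, 9.15 and 9.77 in the Gr1-negative ones. At day 2 it was 9.85, 10.45 and 10.95 against 8.55, 7.82 and 8.51, and at day 4 it was 8.48, 9.79 and 8.69 against 7.0, 7.48 and 6.61. The groups did not overlap on any of these days, although both fell with time. Gr1-negative cells lay lower without overlap for 3.32%, 11.1% and 11% of all genes at days 1, 2 and 4. These shares also apply to the genes described next. At day 8 the single Gr1-positive array read 10.53 and the Gr1-negative arrays 8.07, 7.50 and 6.64. Hp was lower in Gr1-negative cells 4.35-fold at day 2 (log2 difference -2.12 ± 0.38, limma adjusted p = 0.00564), 3.89-fold at day 4 (-1.96 ± 0.38, adjusted p = 0.0158) and 3.71-fold as a mean over days 1, 2 and 4 (-1.89 ± 0.22, adjusted p = 3.07e-05). The mean difference was the fourth lowest among all genes tested. At day 1 the difference of -1.59 ± 0.38 missed the threshold (limma adjusted p = 0.0585). The day 2 call was lost without the day 2 Gr1-negative replicate 2 (adjusted p = 0.0501), and the day 4 call without the Gr1-positive replicate 2 (0.137), the Gr1-negative replicate 1 (0.0679) or the Gr1-negative replicate 3 (0.0974) of that day, and without both replicates numbered 2 (0.116).

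Plac8 followed the sort more than the day. In the Gr1-positive replicates it was 11.81, 12.08 and 12.04 at day 1, 11.33, 11.77 and 11.99 at day 2, 11.42, 11.94 and 11.30 at day 4, and 12.29 on the day 8 array. The 10 arrays ranged only from 11.30 to 12.29. In Gr1-negative replicates it was 10.79, 11.32 and 11.38 at day 1, 9.50, 9.67 and 10.59 at day 2, 10.06, 10.99 and 10.34 at day 4, and 10.61, 9.91 and 9.30 at day 8. The subsets did not overlap on any day, as for 3.32%, 11.1%, 11% and 31.8% of all genes at days 1, 2, 4 and 8. Day 8 has 1 Gr1-positive array. Plac8 was lower in Gr1-negative cells 3.43-fold at day 2 (log2 difference -1.78 ± 0.32, limma adjusted p = 0.00501) and 2.34-fold as a mean over days 1, 2 and 4 (-1.23 ± 0.18, adjusted p = 0.000395). The differences at day 1 (-0.81) and day 4 (-1.10) did not pass (adjusted p = 0.386 and 0.153).

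Vcan had the steepest fall and a subset difference on top of it. At day 1 it was 12.80, 12.43 and 12.30 in Gr1-positive and 12.08, 11.67 and 11.80 in Gr1-negative replicates, a narrow gap with no overlap. At day 2 the Gr1-positive arrays stayed at 12.28, 11.87 and 11.97, while the Gr1-negative ones read 10.75, 8.75 and 9.64. Gr1-negative cells were then 5.01-fold lower (log2 difference -2.33 ± 0.39, limma adjusted p = 0.00333), the third lowest difference among all genes. At day 4 the values were 9.15, 9.81 and 8.78 against 8.31, 7.61 and 6.89, again with no overlap, and the difference of -1.64 ± 0.39 narrowly missed (adjusted p = 0.0567). Over days 1, 2 and 4 the mean difference was -1.54 ± 0.22, or 2.92-fold (adjusted p = 0.000315). The widening from day 1 to day 2 was -1.66 ± 0.55 and did not pass (limma adjusted p = 1, unadjusted p = 0.007).

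Chil3 was lower in Gr1-negative cells in every group mean but varied more between arrays. At day 1 it was 12.02, 12.16 and 11.83 against 10.38, 11.05 and 10.97, and at day 2 it was 11.03, 11.55 and 11.56 against 10.30, 10.32 and 10.61, with no overlap on either day. At day 4 the values were 9.66, 11.04 and 9.66 against 8.42, 10.66 and 9.09, where the groups overlapped, both replicates numbered 2 being high. Its differences of -1.20, -0.97 and -0.73 at days 1, 2 and 4 did not pass (limma adjusted p = 0.512, 0.364 and 0.567), nor did their mean of -0.97 ± 0.31 (0.0565). The near-identical Chil4 can share signal with the Chil3 probe set.

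The other 4 genes showed narrow gaps. F10 was 11.98, 12.20 and 11.63 against 11.52, 11.79 and 11.73 at day 1 and 12.08, 11.74 and 11.97 against 11.46, 10.69 and 11.08 at day 2. At day 4 it was 9.55, 10.85 and 9.65 against 8.94, 9.82 and 9.01. The groups overlapped at days 1 and 4 and not at day 2, and the mean difference of -0.62 ± 0.19 missed the threshold (limma adjusted p = 0.0509). Mean differences were -0.21 ± 0.10 for F13a1, -0.17 ± 0.07 for Thbs1 and -0.06 ± 0.12 for Fn1 (limma adjusted p = 0.187, 0.132 and 0.729). For Fn1, whose arrays of the subsets interleaved at days 1, 2 and 4, the estimate is close to 0 with that SE.

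**Figure D3:**
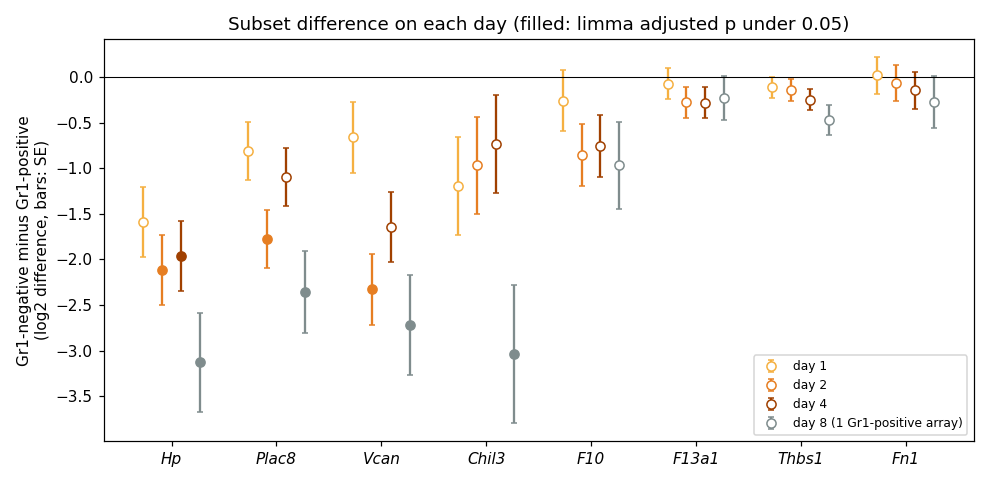
Difference between Gr1-negative and Gr1-positive cells (vertical axis, log2, bars SE of the limma fit) for each gene on days 1, 2, 4 and 8, with filled points where the adjusted p is under 0.05. Hp lies between -1.59 and -3.13, Vcan between -0.66 and -2.72, and Fn1 near 0 on all days, and at day 8 the Gr1-positive cells are a single array.

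Counted over the 8 genes, none passed at day 1 in limma (0.858% of all genes called in either direction), and 3 did at an unadjusted p under 0.05 (Hp, Plac8 and Chil3), as did 8.67% of all genes. At day 2 Vcan, Plac8 and Hp were lower in Gr1-negative cells, 3 of 8, against 0.682% of all genes called lower. At day 4 Hp alone was, 1 of 8 against 0.171%. For the mean over days 1, 2 and 4 the count was 3 of 8 (Hp, Vcan and Plac8) against 1.87%. The median difference of the 8 was -0.46, -0.91 and -0.74 at days 1, 2 and 4, and that of all genes 0.00, -0.03 and -0.03. None of the 8 was called higher in Gr1-negative cells. Same-numbered arrays of day 2 and of day 4 deviated together, and when the number entered the fit as a block, Chil3 (adjusted p = 0.0025) and F10 (0.00106) joined at day 2, giving 5 of 8 against 2.15% of all genes called lower with the block. At day 4 the block gave 5 of 8 as well, adding Vcan (0.0035), Plac8 (0.000465), Chil3 (0.0313) and F10 (0.0053) to Hp, against 0.913% of all genes. For the mean over days 1, 2 and 4 the block gave 7 of 8, adding Chil3 (3.4e-05), F10 (0.000116), Thbs1 (0.021) and F13a1 (0.0314), against 4.21% of all genes. At day 1, which enters that mean, 1 of the 3 same-numbered pairs correlated at only 0.0981, though each array matched its own number best. With the block, Hp (limma adjusted p = 0.00507), Plac8 (0.00396) and Chil3 (0.00175) were lower in Gr1-negative cells at day 1. That is 3 of 8, where 747 of all 19938 genes were called in either direction with the block.

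Between same-numbered arrays the direction was uniform for 5 genes. Vcan, Plac8, Chil3, Thbs1 and Hp were lower in the Gr1-negative array in 10 of 10 pairs, a pattern that 1.27% of all genes showed. F10 was lower in 9 pairs, and F13a1 and Fn1 in 8 each. Over the 8 genes, 75 of 80 pairs had the lower value in Gr1-negative cells. The genes share the same arrays and move together, so these are not 80 independent observations. The day 8 pair rests on the single Gr1-positive array of that day. The differences for Thbs1 were small in size although its pairs had 1 direction, -0.11, -0.14 and -0.25 at days 1, 2 and 4.

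At day 8 the differences were wide, but Gr1-positive cells rest on 1 array, and limma takes its spread from the groups with 3. Hp (-3.13 ± 0.54, limma adjusted p = 0.0054), Vcan (-2.72 ± 0.55, 0.0147), Plac8 (-2.36 ± 0.45, 0.0108) and Chil3 (-3.04 ± 0.76, 0.0435) were lower in Gr1-negative cells, 4 of 8 against 0.692% of all genes. Vcan read 10.86 on the Gr1-positive array and 8.20, 7.76 and 8.48 on the Gr1-negative ones, and Chil3 read 10.78 against 7.63, 9.12 and 6.49. The groups of neither gene overlapped, and in 7 of the 8 genes, F13a1 being the exception, the Gr1-positive array lay above all 3 Gr1-negative ones, as it did for 31.8% of all genes. Chil3 lost its call without the Gr1-negative replicate 1 (adjusted p = 0.0529) or 3 (0.122), with every probe set tested (0.0655) and with a robust variance trend (0.0782), and no member was called when only the 4 arrays of day 8 entered the fit. F10 read 11.17 on the Gr1-positive array and 11.003, 9.91 and 9.67 on the others, F13a1 11.41 and 10.87, 11.59 and 11.08, Thbs1 13.02 and 12.79, 12.67 and 12.19, and Fn1 12.38 and 12.29, 12.06 and 11.96. These differed by -0.97 (F10), -0.47 (Thbs1), -0.27 (Fn1) and -0.23 (F13a1) and did not pass.

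In Gr1-negative cells, calls between neighbouring days were mostly falls up to day 4. From day 1 to 2, Vcan fell 4.39-fold (-2.13 ± 0.39, limma adjusted p = 0.00469) and Plac8 2.37-fold (-1.25 ± 0.32, 0.028), 2 of 8 against 1.08% of all genes called lower, and the other 6 did not pass. The Plac8 call was lost without any of the day 1 replicates 1 (adjusted p = 0.0519), 2 (0.0842) and 3 (0.088), or the day 2 replicate 1 (0.0828) or 2 (0.166). From day 2 to 4, 6 of 8 fell against 6.69% of all genes, namely Vcan (-2.11 ± 0.39, adjusted p = 0.000955), F10 (-1.82 ± 0.34, 0.00102), Fn1 (-1.22 ± 0.20, 0.000378), Hp (-1.27 ± 0.38, 0.0304), F13a1 (-0.67 ± 0.17, 0.0107) and Thbs1 (-0.48 ± 0.12, 0.00904). Plac8 (0.54) and Chil3 (-1.02) did not pass.

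F13a1 in that step lost its call without the day 2 Gr1-negative replicate 1 (adjusted p = 0.065) or the day 4 Gr1-negative replicates 2 (0.0519) or 3 (0.0679). Hp lost its call without the day 2 Gr1-negative replicate 1 (0.108) or 3 (0.111), or the day 4 replicate 1 (0.0805) or 3 (0.135). Both genes had lower means at day 4 in every such fit. From day 4 to 8 the direction turned for Fn1, the only member called, which rose 1.63-fold (0.70 ± 0.20, limma adjusted p = 0.0328), 1 of 8 against 3.17% of all genes called higher. Fn1 read 11.81, 11.35 and 11.04 at day 4 and 12.29, 12.06 and 11.96 at day 8 in Gr1-negative cells. The days did not overlap, and 16.3% of all genes were higher at day 8 without overlap in this step. Its call was lost without the day 4 Gr1-negative replicate 2 (adjusted p = 0.0912) or 3 (0.128) or the day 8 replicate 1 (0.125) or 2 (0.0872). F10 (0.94, adjusted p = 0.0771) and Chil3 (-1.64, 0.0562) did not pass, and the other 5 ranged from -0.52 to 0.54.

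From day 1 to day 8 all 8 genes fell in Gr1-negative cells, against 9.77% of all genes called lower. Vcan fell 13.01-fold (-3.70 ± 0.39, limma adjusted p = 3.22e-06), the third lowest difference among all genes, and Chil3 8.32-fold (-3.06 ± 0.54, 0.000482). Hp fell 3.52-fold, F10 2.80-fold and Plac8 2.34-fold. Fn1 (1.89-fold), F13a1 (1.82-fold) and Thbs1 (1.57-fold) fell least. The 3 Gr1-negative arrays of day 8 lay below the 3 of day 1 for each of the 8 genes, as they did for 16.9% of all genes. Plac8 lost its call without the day 8 Gr1-negative replicate 3 (adjusted p = 0.0678).

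In Gr1-positive cells the falls that passed came after day 2. From day 1 to 2 none of the 8 passed in limma, 0 at an unadjusted p under 0.05, against 0.291% of all genes called in either direction, and F10 went from 11.94 to 11.93. From day 2 to 4, 6 of 8 fell against 7.44% of all genes. Vcan fell 6.92-fold (-2.79 ± 0.39, limma adjusted p = 6.11e-05), the fourth lowest difference among all genes. F10 fell 3.77-fold (-1.91 ± 0.34, 0.000505), Hp 2.69-fold (-1.43 ± 0.38, 0.0119) and Fn1 2.20-fold (-1.14 ± 0.20, 0.000492). F13a1 (-0.67 ± 0.17, 0.00871) and Thbs1 (-0.37 ± 0.12, 0.032) moved less. Chil3 (-1.26, 0.117) and Plac8 (-0.14, 0.797) did not pass. Thbs1 lost its call without the day 2 Gr1-positive replicate 1 (adjusted p = 0.118) or 2 (0.0567) or the day 4 replicate 1 (0.102) or 3 (0.0984). Hp lost its call without the day 2 Gr1-positive replicate 3 (0.0682) or the day 4 replicate 1 (0.0696) or 3 (0.0557).

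F13a1 shows the step well. Its Gr1-positive arrays read 12.11, 12.02 and 12.19 at day 1, 12.06, 12.21 and 12.12 at day 2, and 11.70, 11.36 and 11.32 at day 4. Its Gr1-negative arrays read 12.07, 12.11 and 11.94, then 12.09, 11.76 and 11.71, then 11.57, 11.01 and 10.96. The arrays of days 1 and 2 lay above those of day 4 in both subsets. From day 2 to 4, 14.1% of all genes fell without overlap in Gr1-positive and 26.7% in Gr1-negative cells. Thbs1 went from 13.30, 13.29 and 13.35 at day 1 to 13.24, 13.11 and 13.02 at day 2 and 12.70, 12.88 and 12.68 at day 4 in Gr1-positive cells. In Gr1-negative cells it went from 13.13, 13.26 and 13.21 to 13.06, 12.90 and 12.99 and then 12.40, 12.61 and 12.51. These levels are close to the highest value of the table, 13.949, where signals can be compressed. Fn1 read 13.07, 12.96 and 12.98 at day 1, 12.93, 12.63 and 12.49 at day 2 and 11.97, 11.62 and 11.05 at day 4 in Gr1-positive cells, and 13.05, 13.05 and 12.97, then 12.90, 12.43 and 12.53, then 11.81, 11.35 and 11.04 in Gr1-negative cells. In both subsets its arrays of day 4 lay below those of day 2, against the same shares of all genes, 14.1% and 26.7%.

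From day 1 to day 4 in Gr1-positive cells, 7 of 8 fell against 9.42% of all genes, Plac8 (-0.42, limma adjusted p = 0.426) being the exception. Vcan fell 9.58-fold (-3.26 ± 0.39, adjusted p = 5.59e-06), F10 3.79-fold, Chil3 3.69-fold, Hp 3.53-fold, Fn1 2.75-fold, F13a1 1.57-fold and Thbs1 1.48-fold. Chil3 lost its call without the day 4 Gr1-positive replicate 1 (adjusted p = 0.06) or 3 (0.0621). From day 4 to the single day 8 array, 7 of 8 differences were above 0, among them Vcan (1.61, adjusted p = 0.0887), Hp (1.54, 0.0981), F10 (1.15, 0.161) and Fn1 (0.83, 0.0894). None passed in limma, 4 did at an unadjusted p under 0.05 against 21.6% of all genes, and 6.21% of all genes were called in either direction. The changes of the subset difference between days called 0 of the 8 genes in limma, with 2 at an unadjusted p under 0.05 from day 1 to 2 (Vcan and Plac8) and 0 from day 2 to 4 or day 1 to 4. At that unadjusted threshold stood 3.26%, 5.51% and 5.83% of all genes from day 1 to 2, 2 to 4 and 1 to 4. After adjustment the changes called 0%, 0.015% and 0.0953% of all genes.

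Across the 22 arrays the 8 genes tracked each other, as days and subsets move them together. Pearson r between members ran from 0.233 (Plac8 and Fn1) to 0.916 (F10 and Thbs1), with a median of 0.801 over 28 pairs. Around their group means (21 arrays, leaving out the single one) r ran from -0.417 (Plac8 and F13a1) to 0.779 (Hp and F10), with a median of 0.292, and it was below 0 in 8 pairs. Hp and Plac8 kept an r of 0.758 and Vcan and Fn1 one of 0.661. All points of a correlation share the same arrays, so these are descriptions.

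**Figure D4:**
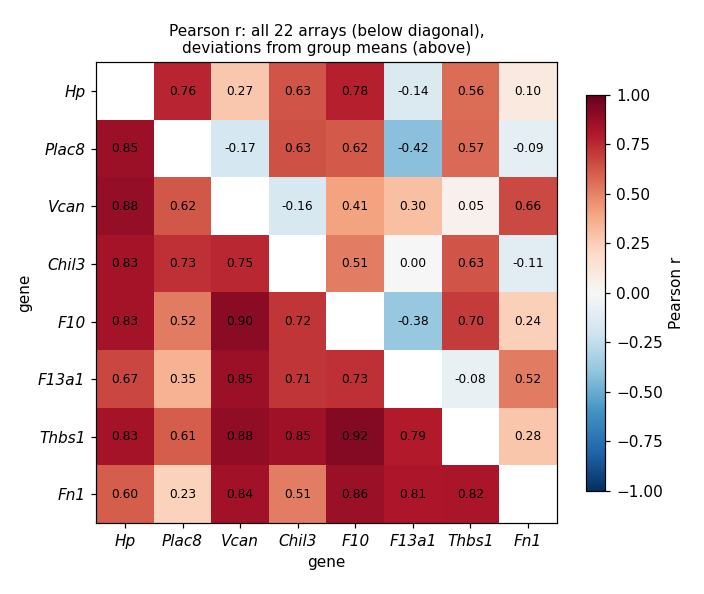
Pearson r between the 8 genes, over all 22 arrays below the diagonal and over deviations from group means above it, with the same 8 genes on both axes. Values below the diagonal run from 0.233 to 0.916, and those above it from -0.417 to 0.779.

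The genes with patterns most like each member over the 22 arrays were ranked by Pearson r. They were Plcb1 (0.964) and Emilin2 (0.956) for Vcan, Gm9733 (0.96) and Ifitm3 (0.955) for Plac8, and Il1f9 (0.952) and Ly6a2 (0.951) for Hp. Clec4e (0.976) and Arg2 (0.964) were nearest to F10, Ccr1 (0.962) and Slpi (0.955) to Thbs1, and Clec4d (0.953) and Flna (0.948) to Fn1. Msr1 (0.901) and Ppbp (0.884) were nearest to F13a1. Chil3 had the least alike neighbours, Vill and Cd300lf at 0.883 each.

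Of 18 other measured genes of Ly6C-high monocytes, 12 were lower in Gr1-negative cells as a mean over days 1, 2 and 4. None was higher, and 1.87% of all genes were called lower. The median of the 18 was -0.43 against -0.03 over all genes. The 12 include S100a9 (-1.54 ± 0.14), S100a8 (-1.34 ± 0.18), Ifitm6 (-1.17 ± 0.17) and Hdc (-1.08 ± 0.20). From day 1 to 4 in Gr1-positive cells 12 fell and none rose, against 9.42% of all genes called lower. S100a8 fell 5.23-fold and Gda 3.59-fold. From day 1 to 8 in Gr1-negative cells 12 fell, against 9.77% of all genes, Slfn4 by 4.59-fold. Of 14 measured genes of Ly6C-low monocytes, 3 were higher and 4 lower in Gr1-negative cells as a mean over days 1, 2 and 4, with a median of 0.01, against 7.61% and 1.87% of all genes, so that the calls of that list went both ways.

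The clotting list sets F10 and F13a1 among related genes. Of 32 measured clotting and fibrinolysis genes, not counting members, 7 rose and 9 fell from day 1 to 4 in Gr1-positive cells, median -0.03, where 16.2% of all genes were called higher and 9.42% lower. The share that rose is near that background. Serpinb2, an inhibitor of plasminogen activators, fell 13.9-fold (-3.80 ± 0.60), F5, the cofactor of the F10 protease, 5.25-fold (-2.39 ± 0.22) and Thbd 3.55-fold, while Gas6 rose 5.98-fold. F5 was also 2.36-fold lower in Gr1-negative cells over days 1, 2 and 4, where F10 missed the threshold. In Gr1-negative cells from day 1 to 8, 4 rose and 7 fell, against 8.68% and 9.77% of all genes, F7 by 2.23-fold among the latter.

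Of 33 measured receptors and partners of the matrix members, 6 rose and 7 fell from day 1 to 4 in Gr1-positive cells, median 0.01. Of all genes 16.2% were called higher and 9.42% lower, the share that rose again being near that background. Itga9, an integrin chain that binds fibronectin's EDA segment, rose 6.80-fold, Sdc1 fell 5.70-fold, Tnfaip6 4.10-fold and Itga5, a chain of the fibronectin receptor, 2.21-fold. Beside Hp, 3 of 10 genes of haemoglobin and haem clearance rose and 1 fell in the same comparison. The 1 that fell is near the 9.42% of all genes called lower. Slc40a1, the iron exporter, rose 2.87-fold and 5.50-fold from day 1 to 8 in Gr1-negative cells, opposite to Hp. Of 8 chitinase family genes besides Chil3, 2 fell from day 1 to 4 in Gr1-positive cells, against 9.42% of all genes. They were Chil1, by 5.83-fold, and Chil4, by 1.69-fold.

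Markers of other cell types moved with the members in part, and their part in the results was not tested. Of 17 neutrophil markers, 12 were lower in Gr1-negative cells as a mean over days 1, 2 and 4, against 1.87% of all genes. None was higher, and the median was -0.43, the direction of Hp, Plac8 and Vcan. S100a8 and S100a9 stand in this list and in that of Ly6C-high monocytes. The mean level of the 17 neutrophil markers per array ranged from 8.09 to 8.36 in Gr1-positive and 7.23 to 7.58 in Gr1-negative cells at day 1. Lcn2 was 10.6 against 8.43 there, Mmp8 10.8 against 9.98 and Mmp9 9.79 against 9.69. At the same day Cd177 was 10.3 against 8.8, Csf3r 10.3 against 9.60 and S100a8 9.76 against 8.00. S100a9 was 9.46 against 7.54 and Cxcr2 8.22 against 6.44. Other granule genes were dimmer. Elane, Mpo, Camp, Ngp and Ltf had group means of 5.16 to 7.0 throughout, and Prtn3 read 7.37 in Gr1-positive cells of day 1. Fewer cells of a type and less RNA per cell cannot be told apart in bulk samples. F13a1 and Thbs1 are also known from platelets. Of 8 measured platelet markers 2 fell from day 1 to 4 in Gr1-positive cells, against 9.42% of all genes called lower. Ppbp fell by 4.50 on the log2 scale. Pf4 had group means of 11.1 to 12.5, while Itga2b, Gp5, Gp9, Tubb1 and Treml1 had group means of 6.67 to 7.92 throughout.

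Fibroblast markers, which stand for cells that also make Vcan, Fn1 and Thbs1, went the other way. Their mean level ranged from 6.64 to 7.01 in Gr1-negative cells at day 1. At day 8 replicates 1 to 3 read 7.40, 7.57 and 9.58, replicate 3 standing apart. From day 1 to 8, 7 of 12 rose and none fell, against 8.68% of all genes called higher, while all 8 members fell. Fn1's rise from day 4 to 8 came beside fibroblast levels of 7.25 to 8.51 at day 4, with no fibroblast marker called. Macrophage markers had a mean level of 11.8 to 12.2 in every group. As a mean over days 1, 2 and 4, Gr1-negative cells had higher levels of 9 of 10 dendritic markers, against 7.61% of all genes. From day 2 to 4 in Gr1-positive cells, 9 of 12 lymphocyte markers rose, median 2.54, against 11.8% of all genes, while 6 of the 8 members fell. Muscle markers rose in 10 of 12 from day 1 to 8 in Gr1-negative cells, against 8.68% of all genes. Of 9 endothelial markers 2 fell, against 9.77%.

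**Figure D5:**
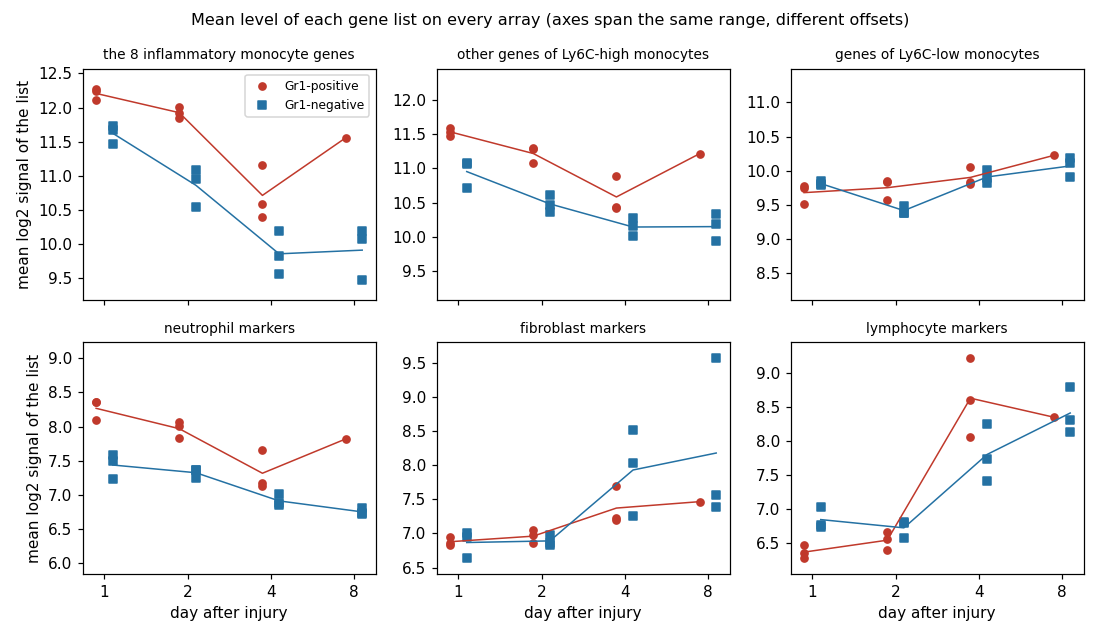
Mean log2 signal of each of 6 gene lists (vertical axis, same span and different offsets) on every array by day after injury, with circles for Gr1-positive and squares for Gr1-negative cells and lines joining group means. The 8 genes and the other Ly6C-high monocyte genes fall to day 4, neutrophil markers are lower in Gr1-negative cells, and fibroblast and lymphocyte markers are highest at day 4 or 8.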

How the data were processed

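The values are the deposited log2 signals of 22 arrays, which the authors summarized with RMA, per the submitters' processing notes; no version is given in the sources used here. The table holds 35556 probe sets. Of these, 21789 name 1 gene, 1621 name several and were left out, and 12146 have no gene in the platform table; 21698 were matched by Entrez number to RefSeq names. Per gene, the probe set of highest mean entered, leaving 19938 genes, and each of the 8 members has 1 probe set. No array was a copy of another (smallest root mean square difference 0.233).

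Models were fitted with limma 3.58.1 (R 4.3.3, statmod 1.5.0), using 1 mean per group over all 22 arrays and Benjamini-Hochberg adjustment over all genes within each of 16 comparisons, called at an adjusted p under 0.05. Differences are log2 ± SE, and their folds are 2 to that power. The replicate number was checked for pairing by the correlation of deviations from the group means. Within days 2 and 4 all 6 pairs of arrays were above 0.1, and 1 of the 3 pairs of day 1 was not (0.0981). Each array of day 1 still matched its own number best. The block is therefore printed beside days 1, 2 and 4, and beside the mean, which they enter. Figures used matplotlib 3.10.9 in Python 3.11.15. The fit was tested on simulated data.

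The members and the lists of related genes were chosen with earlier results of these data known, so none of their counts is independent support. The text names the members in every comparison, the sort genes, the 2 likest genes per member and up to 5 called genes per list. Alternatives covered normalization, probe set rules, a filter on dim genes, array weights, the groups fitted, blocks, and left-out arrays. Promoters are RefSeq sequence of GRCm38.p6.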

Additional observations from a re-analysis of the deposited data

How the results depend on the processing

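Of 41 member results that passed, 26 passed under every alternative run and 15 were lost in at least 1. Over 1846 refits, 1704 kept direction and side of the threshold, 67 newly passed, 53 no longer passed and 22 changed sign; none of the 22 was called in either fit. Counts of members called that moved by over 1.5 times are given first for each setting, then other calls lost or gained with their adjusted p, and the cause was not tested. With the fixed replicate block they were 3 at day 1 (0 without it), 5 at day 2, 5 at day 4, 7 for the mean over days 1, 2 and 4, and 2 from day 4 to 8 in Gr1-negative cells. As a random block (correlation 0.278) it gave 1 at day 1, 3 at day 4, 6 for the mean and 2 from day 4 to 8. All 9 same-numbered arrays of a day matched their own number best. The numbers were not paired across days, where 7 of 15 correlations were above 0.1, and a block on subset and number changed the count from day 4 to 8 only.

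The filter on dim genes gave 1 at day 1, 2 at day 4, 5 for the mean and 2 from day 4 to 8 in Gr1-negative cells. Array weights gave 2 at day 4, 6 for the mean, 2 from day 4 to 8 for the Gr1-negative and 1 for the Gr1-positive cells, and added F10 at day 2 (0.029) and Hp from day 1 to 2 in Gr1-negative cells (0.0485). Fitting only the groups compared gave 2 at day 1, 0 at day 4, 0 at day 8, 6 for the mean and 2 from day 4 to 8 in Gr1-positive cells, lost Vcan (0.0555) and added Chil3 (0.0407) at day 2, and lost Thbs1 from day 2 to 4 in Gr1-positive cells (0.067). Testing every probe set gave 0 at day 4, 1 from day 1 to 2 and 0 from day 4 to 8 in Gr1-negative cells, and lost Chil3 at day 8 (0.0655) and, from day 2 to 4, Hp in Gr1-negative (0.0643) and Thbs1 in Gr1-positive cells (0.055). The robust variance trend lost Chil3 at day 8 (0.0782). Repeating quantile normalization gave 2 at day 4. Without both day 2 arrays numbered 1, 1 member was called from day 1 to 2 in Gr1-negative cells, and from day 2 to 4 F13a1 (0.0595) and Hp (0.08) were lost in Gr1-negative and Thbs1 (0.126) in Gr1-positive cells. Without both day 4 arrays numbered 2, an alternative chosen after seeing the data, there were 0 at day 4, 5 for the mean and 2 from day 4 to 8 in Gr1-positive cells. Chil3 was then gained from day 2 to 4 in both subsets (0.0271 in Gr1-negative, 0.0176 in Gr1-positive cells), and in Gr1-negative cells F13a1 (0.0597, day 2 to 4) and Fn1 (0.103, day 4 to 8) were lost and F10 (0.0287, day 4 to 8) gained.

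Leaving out 1 array gave 0 to 1 members at day 1, 2 to 3 at day 2, 0 to 1 at day 4, 3 to 4 at day 8 and 3 to 5 for the mean. The steps of Gr1-negative cells gave 1 to 2 (day 1 to 2), 4 to 6 (day 2 to 4), 0 to 2 (day 4 to 8) and 7 to 8 (day 1 to 8), and those of Gr1-positive cells 4 to 7 (day 2 to 4), 0 to 2 (day 4 to 8) and 6 to 7 (day 1 to 4). Signs changed for F13a1 from day 4 to 8, with 0.0525 (quantile) and 0.18 (weights) for the Gr1-negative and 0.0397 (quantile) for the Gr1-positive cells. With 1 array left out, ranges crossing 0 were -0.00295 to 0.0537, -0.20 to 0.0602, -0.39 to 0.0660 and -0.15 to 0.00727 for Fn1 at days 1, 2, 4 and the mean, -0.21 to 0.19 for F13a1 and -0.0797 to 0.22 for Thbs1 from day 4 to 8 in Gr1-negative cells. In Gr1-positive cells they were -0.17 to 0.12 for F10 and -0.0256 to 0.0591 for F13a1 (day 1 to 2), -0.33 to 0.0045 for Plac8 (day 2 to 4) and -0.12 to 0.0686 for F13a1 (day 4 to 8). Over all genes the calls ranged from 72 to 747 at day 1, 122 to 3049 at day 2, 47 to 704 at day 4, 25 to 1462 at day 8 and 1263 to 3977 for the mean. For the steps they ranged from 161 to 2823, 1998 to 6161, 523 to 4777 and 2662 to 4540 in Gr1-negative cells (days 1 to 2, 2 to 4, 4 to 8, 1 to 8) and from 0 to 1842, 2422 to 5683, 499 to 3168 and 3917 to 6409 in Gr1-positive cells (days 1 to 2, 2 to 4, 4 to 8, 1 to 4). Signals near the top of the range can be compressed, which bears on Thbs1 and Fn1.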
